A study of Mus musculus with 90 samples.

Results

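Fatty acid oxidation and ketogenesis in the liver were followed through 29 genes, chosen by name for the mitochondrial, peroxisomal and ketone body steps, out of 24475 genes in each deposited table. By role they were 3 regulators (Ppara, Lpin1, Pdk4), 5 genes of fatty acid activation and the carnitine shuttle (Acsl1, Cpt1a, Cpt2, Slc25a20, Crat), 8 of the mitochondrial cycle (Acadl, Acadm, Acads, Acadvl, Hadh, Hadha, Hadhb, Acaa2), 3 auxiliary enzymes for unsaturated chains (Eci1, Eci2, Decr1), 3 of electron transfer (Etfa, Etfb, Etfdh), 4 peroxisomal (Crot, Ehhadh, Acaa1a, Acaa1b), 2 of ketone bodies (Bdh1, Acat1) and the PPAR alpha target Vnn1. Every member was found in both tables, and 29 of 29 passed the filter on low counts in each.

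In the liver, long-chain fatty acids are joined to coenzyme A by Acsl1, carried into mitochondria by the carnitine system, and shortened in repeated rounds of dehydrogenation, hydration, dehydrogenation and thiolysis. Electrons from the first step pass through the electron transfer flavoprotein, made of the Etfa and Etfb subunits, to its dehydrogenase Etfdh. Peroxisomes shorten very long and branched chains. Acetyl-CoA from the mitochondrial cycle can be turned into ketone bodies for export. PPAR alpha, encoded by Ppara, is a nuclear receptor that induces many of these genes in fasting. Glucagon acts on the same organ: its receptor couples to the stimulatory G protein encoded by Gnas, raises cAMP, and thereby activates protein kinase A (PKA) and the exchange factor Epac2, encoded by Rapgef4.

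The data are bulk liver RNA-seq of 90 samples in 9 groups of 10, in 2 experiments, each deposited as its own table. In experiment 1, AAV8, a virus that transduces liver, carried a short hairpin RNA for knockdown (KD), giving the groups Control, Gcgr KD, Gnas KD, PKA KD and Epac2 KD. In experiment 2, mice had either a Control AAV or Prkar1a KD, and were given either Control mAb or Gcgr mAb, the latter an antibody that targets the glucagon receptor, in all 4 combinations. Prkar1a encodes a regulatory subunit that holds PKA inactive, and lowering it frees the catalytic subunits; the design text speaks of activating PKA with or without inhibition of the receptor. All groups thus received a virus, and all of experiment 2 received an antibody as well. The labels do not name the PKA subunit targeted, the control hairpin, the promoter that drove the hairpins, the strain, sex, age or feeding state. They also do not say that the samples of a group came from separate mice, so p-values measure only how these samples spread, which may be technical. Total counts per library were 20.8 to 33.7 M in experiment 1 (median 25.3 M) and 8.9 to 19.5 M in experiment 2 (median 16.5 M), where M stands for mega.

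Levels are given in CPM, the counts of a gene scaled to a common library total, as lowest, median and highest of the 10 libraries of a group. Differences are log2 fold changes ± SE from edgeR with p-values adjusted over all tested genes, and a gene is said to have risen or fallen where the adjusted p was under 0.05. In every knockdown group the targeted transcript was below all 10 libraries of its control group, with log2 fold changes from -3.27 for Rapgef4 in Epac2 KD to -1.74 for Prkar1a in Prkar1a KD + Gcgr mAb against Control AAV + Gcgr mAb, and in PKA KD this held for both catalytic subunit genes, Prkaca (-3.06) and Prkacb (-2.06). Gcgr mRNA carries no check on the antibody, which acts on the protein. The 8 hepatocyte markers, Alb and Apoa1 among them, summed to 37196 to 142309 CPM in every library, so the tissue carried the defining markers of liver.

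Some libraries stood apart. Replicate 2 of the Control AAV + Gcgr mAb group correlated least with the rest of its group (r = 0.944 over genes), where the medians of all 9 groups were 0.986 to 0.99. Replicates 3 and 5 of PKA KD, replicate 7 of Epac2 KD and replicate 10 of Control AAV + Control mAb followed, at 0.9671 to 0.974. In replicate 2 of Prkar1a KD + Gcgr mAb the 5 skeletal muscle markers summed to 519 CPM, against at most 10.9 CPM in any other library. Without each of these 6 libraries in turn, the counts of called members in the comparisons they entered moved by at most 3 genes.

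In the Control livers of experiment 1 the 29 genes covered a wide range of levels per kilobase of transcript. Acaa1b, a peroxisomal thiolase, was highest at 884 ± 150.4 CPM per kb (SD, n = 10), followed by the mitochondrial thiolase Acaa2 at 462 ± 32.6 CPM per kb. Pdk4, a kinase that shuts pyruvate dehydrogenase and so spares glucose, was lowest at 4.84 ± 2.95 CPM per kb. Lpin1, a phosphatidate phosphatase that also works as a coactivator of PPAR alpha, was next lowest at 16.4 ± 2.99 CPM per kb, and its spread did not reach down to the mean of Pdk4. Pdk4 also varied most between control libraries, with an SD of 0.81 on the log2 scale in experiment 1 and 0.85 in experiment 2, where the medians over the 29 genes were 0.14 and 0.19. Levels are not compared between the experiments, which were deposited separately.

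**Figure D1:**
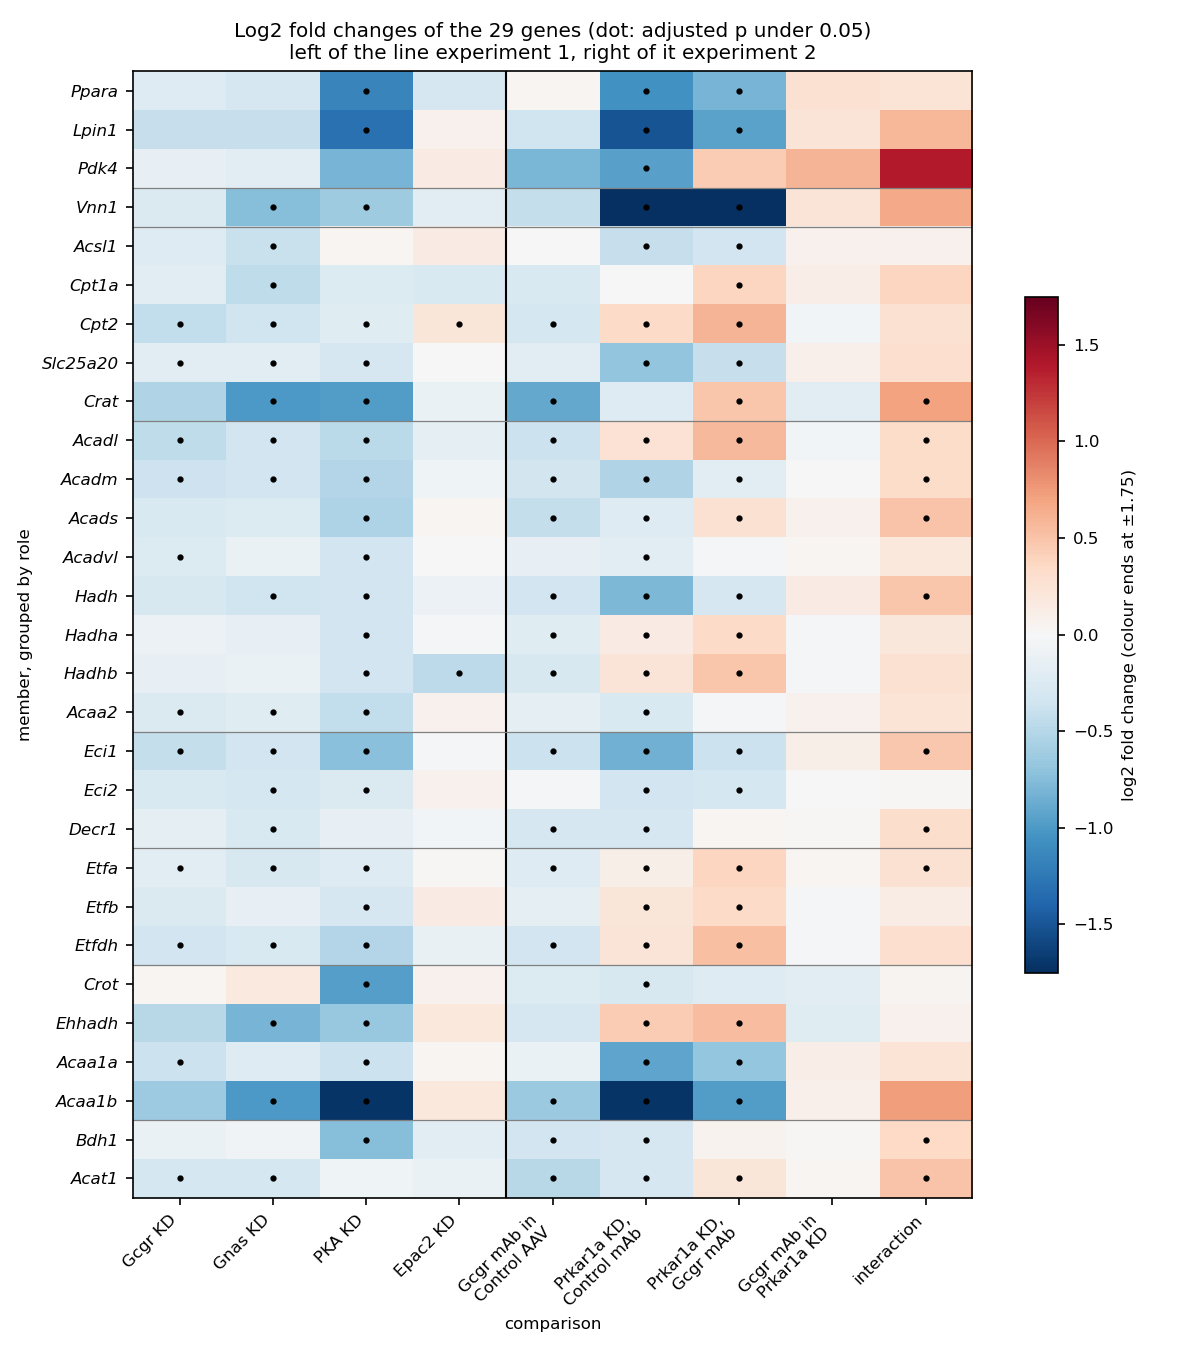
Log2 fold change of each of the 29 genes (rows, grouped by role) in each comparison (columns), blue for lower and red for higher, with a dot where the adjusted p was under 0.05. PKA KD holds blue cells with dots in every role, Prkar1a KD holds dots on both colours, and Gcgr mAb in Prkar1a KD holds no dot.

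Lowering the glucagon receptor lowered genes of every role, except the regulators and Vnn1, by modest amounts. With Gcgr KD 11 of the 29 genes fell and the other 18 did not pass the test, where 4.33% of all tested genes fell and 2.9% rose. The set is well expressed: 28 of the 29 reach 5 on the scale of log2 CPM averaged over the libraries. Among tested genes that reach the same level, termed well expressed genes, 8.98% fell. The median log2 fold change of the 29 was -0.25, against 0.01 over all tested genes, and 28 of the 29 lay below 0. The peroxisomal genes Acaa1b (-0.64 ± 0.22, adjusted p = 0.0726) and Ehhadh (-0.49 ± 0.16, adjusted p = 0.0569) did not pass. Both passed with DESeq2 (adjusted p = 0.0399 and 0.0347) and in a fit of only the groups compared (0.0214 and 0.0254).

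Cpt2, the inner membrane carnitine palmitoyltransferase, had a lowest, median and highest level of 91.2, 99.3 and 109.9 CPM with Gcgr KD and of 115, 134 and 148 CPM in Control. The groups did not overlap, and the log2 fold change was -0.43 ± 0.057 (adjusted p = 3.05e-07). Acadl, the long-chain acyl-CoA dehydrogenase, stood at 113, 146 and 169.8 CPM against 175, 191 and 219.8 CPM in Control, again without overlap, with a log2 fold change of -0.45 ± 0.089 (adjusted p = 0.000485). Etfdh, which hands electrons on to the respiratory chain, stood at 172, 202 and 218 CPM against 228, 250 and 279 CPM (-0.33 ± 0.058, adjusted p = 9.23e-05). In all, 6 members had groups without overlap, all of them lower, where 0.7% of all tested genes did.

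The regulators were not among the falls with Gcgr KD. Ppara stood at 302, 360 and 454 CPM against 319, 453 and 571 CPM in Control, so the groups overlapped over most of their range, and its log2 fold change of -0.22 ± 0.12 did not pass the test (adjusted p = 0.287). Cpt1a, the outer membrane carnitine palmitoyltransferase and the regulated entry step, had a log2 fold change of -0.2 ± 0.098 (adjusted p = 0.219). Acat1, the mitochondrial acetoacetyl-CoA thiolase of ketone body synthesis, fell by 0.31 ± 0.07 on the log2 scale (adjusted p = 0.00304), and its groups did not overlap. For Bdh1, which interconverts the main ketone bodies, the log2 fold change was -0.12 ± 0.085 (adjusted p = 0.413).

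With Gnas KD, 18 of the 29 genes fell and the other 11 did not pass the test, against 8.32% of all tested genes that fell and 6.83% that rose (17.5% fell among well expressed genes). All 5 genes of activation and the carnitine shuttle fell and all 3 auxiliary enzymes of unsaturated chains did, while the 3 regulators did not pass the test. The 29 genes had a median log2 fold change of -0.3, and 5 members lay wholly below the controls (1.24% of all tested genes). Crat, the carnitine acetyltransferase, ran at 20.1, 47.1 and 85.9 CPM with Gnas KD and at 61.1, 103 and 143 CPM in Control. The ranges overlapped in part, and the log2 fold change was -1.01 ± 0.22 (adjusted p = 0.00117). Ehhadh, the bifunctional peroxisomal enzyme, stood at 119.5, 164 and 204 CPM against 205, 301 and 382 CPM, just without overlap, at -0.82 ± 0.16 (adjusted p = 0.000312). Cpt1a was at 396, 459 and 572 CPM against 551, 610.4 and 779 CPM (-0.45 ± 0.098, adjusted p = 0.00094). The highest Gnas KD library overlapped the lowest controls, and 10 of 10 were below the control median.

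Gnas KD also lowered Acsl1, by 0.39 on the log2 scale (SE 0.13, adjusted p = 0.0357), a call that is lost without the filter on low counts (adjusted p = 0.0517). Vnn1, a pantetheinase that recycles the precursor of coenzyme A and is a sensitive target of PPAR alpha, stood at 28.6, 59.3 and 102 CPM against 72.4, 99.3 and 136 CPM in Control (-0.74 ± 0.2, adjusted p = 0.00712). Between Gnas KD and Gcgr KD directly, edgeR called 0 of the 29 genes (5.84% of all tested genes were called), with 4 at an unadjusted p under 0.05, and DESeq2 and limma-voom called 0. The widest of these differences was that of Crat, at -0.49 ± 0.22 (adjusted p = 0.223). Stellate cell markers moved with Gnas KD: their 7 genes summed to 303 to 671 CPM (median 514) against 251 to 465 CPM (median 330.1) in Control, and 3 of the 7 rose. Their part in the results above was not tested. In bulk tissue, fewer cells of a type and less RNA per cell cannot be told apart.

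PKA knockdown lowered genes of each role. The largest changes were those of Acaa1b, Lpin1 and Ppara, followed by Crat of the carnitine shuttle (-0.98 ± 0.22, adjusted p = 0.000484) and by Crot. Of the 29 genes 24 fell and the other 5 did not pass the test, where 14.8% of all tested genes fell and 17.7% rose (24.2% fell among well expressed genes). Their median log2 fold change was -0.43, against 0.01 over all tested genes. All 8 genes of the mitochondrial cycle, the 3 of electron transfer and the 4 peroxisomal genes fell. Eci2, an isomerase, lost its call without replicate 3 (adjusted p = 0.0791) and without replicate 5 (adjusted p = 0.0923). For 11 members the PKA KD libraries lay wholly below the controls, which was so for 3.0% of all tested genes.

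Among the regulators Ppara stood at 129, 174 and 263 CPM with PKA KD and at 319, 453 and 571 CPM in Control. Every PKA KD library was below every control library, and the log2 fold change was -1.16 ± 0.12 (adjusted p = 5.12e-11). Lpin1 stood at 19.4, 40.2 and 59.6 CPM against 67.8, 98.6 and 131 CPM, again without overlap (-1.31 ± 0.23, adjusted p = 1.54e-05). Pdk4 had the same direction in 9 of 10 libraries, at 2.59, 7.51 and 30.9 CPM against 6.45, 13.8 and 40.7 CPM. Its groups overlapped widely and -0.82 ± 0.41 did not pass the test (adjusted p = 0.124). The highest value was that of replicate 5, and without that library the log2 fold change was -1.24 (adjusted p = 0.0125).

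In peroxisomes, Acaa1b stood at 300.2, 408 and 753 CPM with PKA KD against 1005, 1528 and 1823 CPM in Control, without overlap, the deepest fall of the 29 genes in this comparison at -1.72 ± 0.23 (adjusted p = 3.92e-08). Its transcripts share 35.5% of their 50-base words with Acaa1a (26.7% of those of Acaa1a), so the counting program could have split reads between the pair and both values are uncertain to that extent. Crot, which makes carnitine esters of the medium chains that leave peroxisomes, stood at 165, 213 and 308 CPM against 388, 437 and 539 CPM (-0.97 ± 0.088, adjusted p = 7.4e-13). No PKA KD library reached the lowest control. With Gcgr KD and Gnas KD the values for Crot were 0.04 ± 0.087 and 0.17 ± 0.087, and neither passed the test. Ehhadh stood at 118, 177 and 229 CPM against 205, 301 and 382 CPM (-0.66 ± 0.16, adjusted p = 0.00135), with the groups overlapping at their edges.

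Over the 8 genes of the mitochondrial cycle the falls with PKA KD lay in a narrow range, from -0.54 to -0.34. The 4 peroxisomal genes ran from -1.72 to -0.37, and the 2 ketone body genes were at -0.74 and -0.07. Acadm, the medium-chain acyl-CoA dehydrogenase, stood at 229.6, 274 and 341 CPM against 326, 397 and 486 CPM in Control (-0.51 ± 0.085, adjusted p = 2.79e-06). Hadha, the alpha subunit of the trifunctional protein, stood at 308, 352 and 387 CPM against 413, 439 and 497 CPM (-0.34 ± 0.057, adjusted p = 4.66e-06). The Hadha groups did not overlap, while those of Acadm met in a narrow range. Eci1, an isomerase for unsaturated chains, had a log2 fold change of -0.73 ± 0.09 (adjusted p = 3.9e-09), and Etfdh of -0.51 ± 0.058 (adjusted p = 5.94e-10).

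The entry steps and the ketone body genes split. Acsl1 stood at 740.2, 1227 and 1757 CPM with PKA KD against 917, 1221 and 1680.4 CPM in Control. The medians were close and the PKA KD range was the wider of the 2 (0.04 ± 0.13, adjusted p = 0.869). For Cpt1a the value was -0.24 ± 0.098 (adjusted p = 0.0568), which passed the threshold with DESeq2 (0.0493) and limma-voom (0.0359). Bdh1 stood at 159, 220 and 241 CPM against 313, 348 and 417 CPM, without overlap, at -0.74 ± 0.085 (adjusted p = 7.47e-10). Acat1 was at 406, 474 and 638 CPM against 465, 506 and 574 CPM, with overlapping groups and a log2 fold change of -0.07 ± 0.07 (adjusted p = 0.499). Mitochondrial ribosomal RNA, a transcript class of the same organelle, made up 0.0682% ± 0.035 (SD, n = 10) of the counts with PKA KD and 0.164% ± 0.021 in Control. Its part in these results was not tested.

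PKA KD also differed from the knockdowns upstream of it. Against Gcgr KD, 10 members were lower and 2 higher (14.4% and 17.3% of all tested genes). Against Gnas KD, 12 were lower and 2 higher (15.6% and 18.4%), but without PKA KD replicate 3 these were 10 and 4, and without replicate 5 they were 13 and 3. Cpt1a then also passed as higher than with Gnas KD (adjusted p = 0.0489 and 0.0484). Acads, the short-chain acyl-CoA dehydrogenase, lost its call without replicate 3 against Gcgr KD (adjusted p = 0.107) and Gnas KD (adjusted p = 0.0598), as did Hadhb against Gnas KD (adjusted p = 0.0545). Ppara was lower than with Gcgr KD by 0.94 on the log2 scale (SE 0.12, adjusted p = 1.38e-08), Crot by 1.01 (SE 0.088, adjusted p = 2.03e-13) and Bdh1 by 0.62 (SE 0.085, adjusted p = 8.64e-08), with no overlap between the groups for any of these 3. In all, 4 members lay wholly below the Gcgr KD libraries (1.91% of all tested genes). The members that were higher were Cpt2 (0.22 ± 0.057, adjusted p = 0.00228) and Acat1 (0.24 ± 0.07, adjusted p = 0.00681) against Gcgr KD, and Acsl1 (0.43 ± 0.13, adjusted p = 0.0099) and Acat1 (0.24 ± 0.07, adjusted p = 0.00631) against Gnas KD. Cpt2 and Acat1, which both fell with Gcgr KD, thus stood higher with PKA KD than with Gcgr KD.

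**Figure D2:**
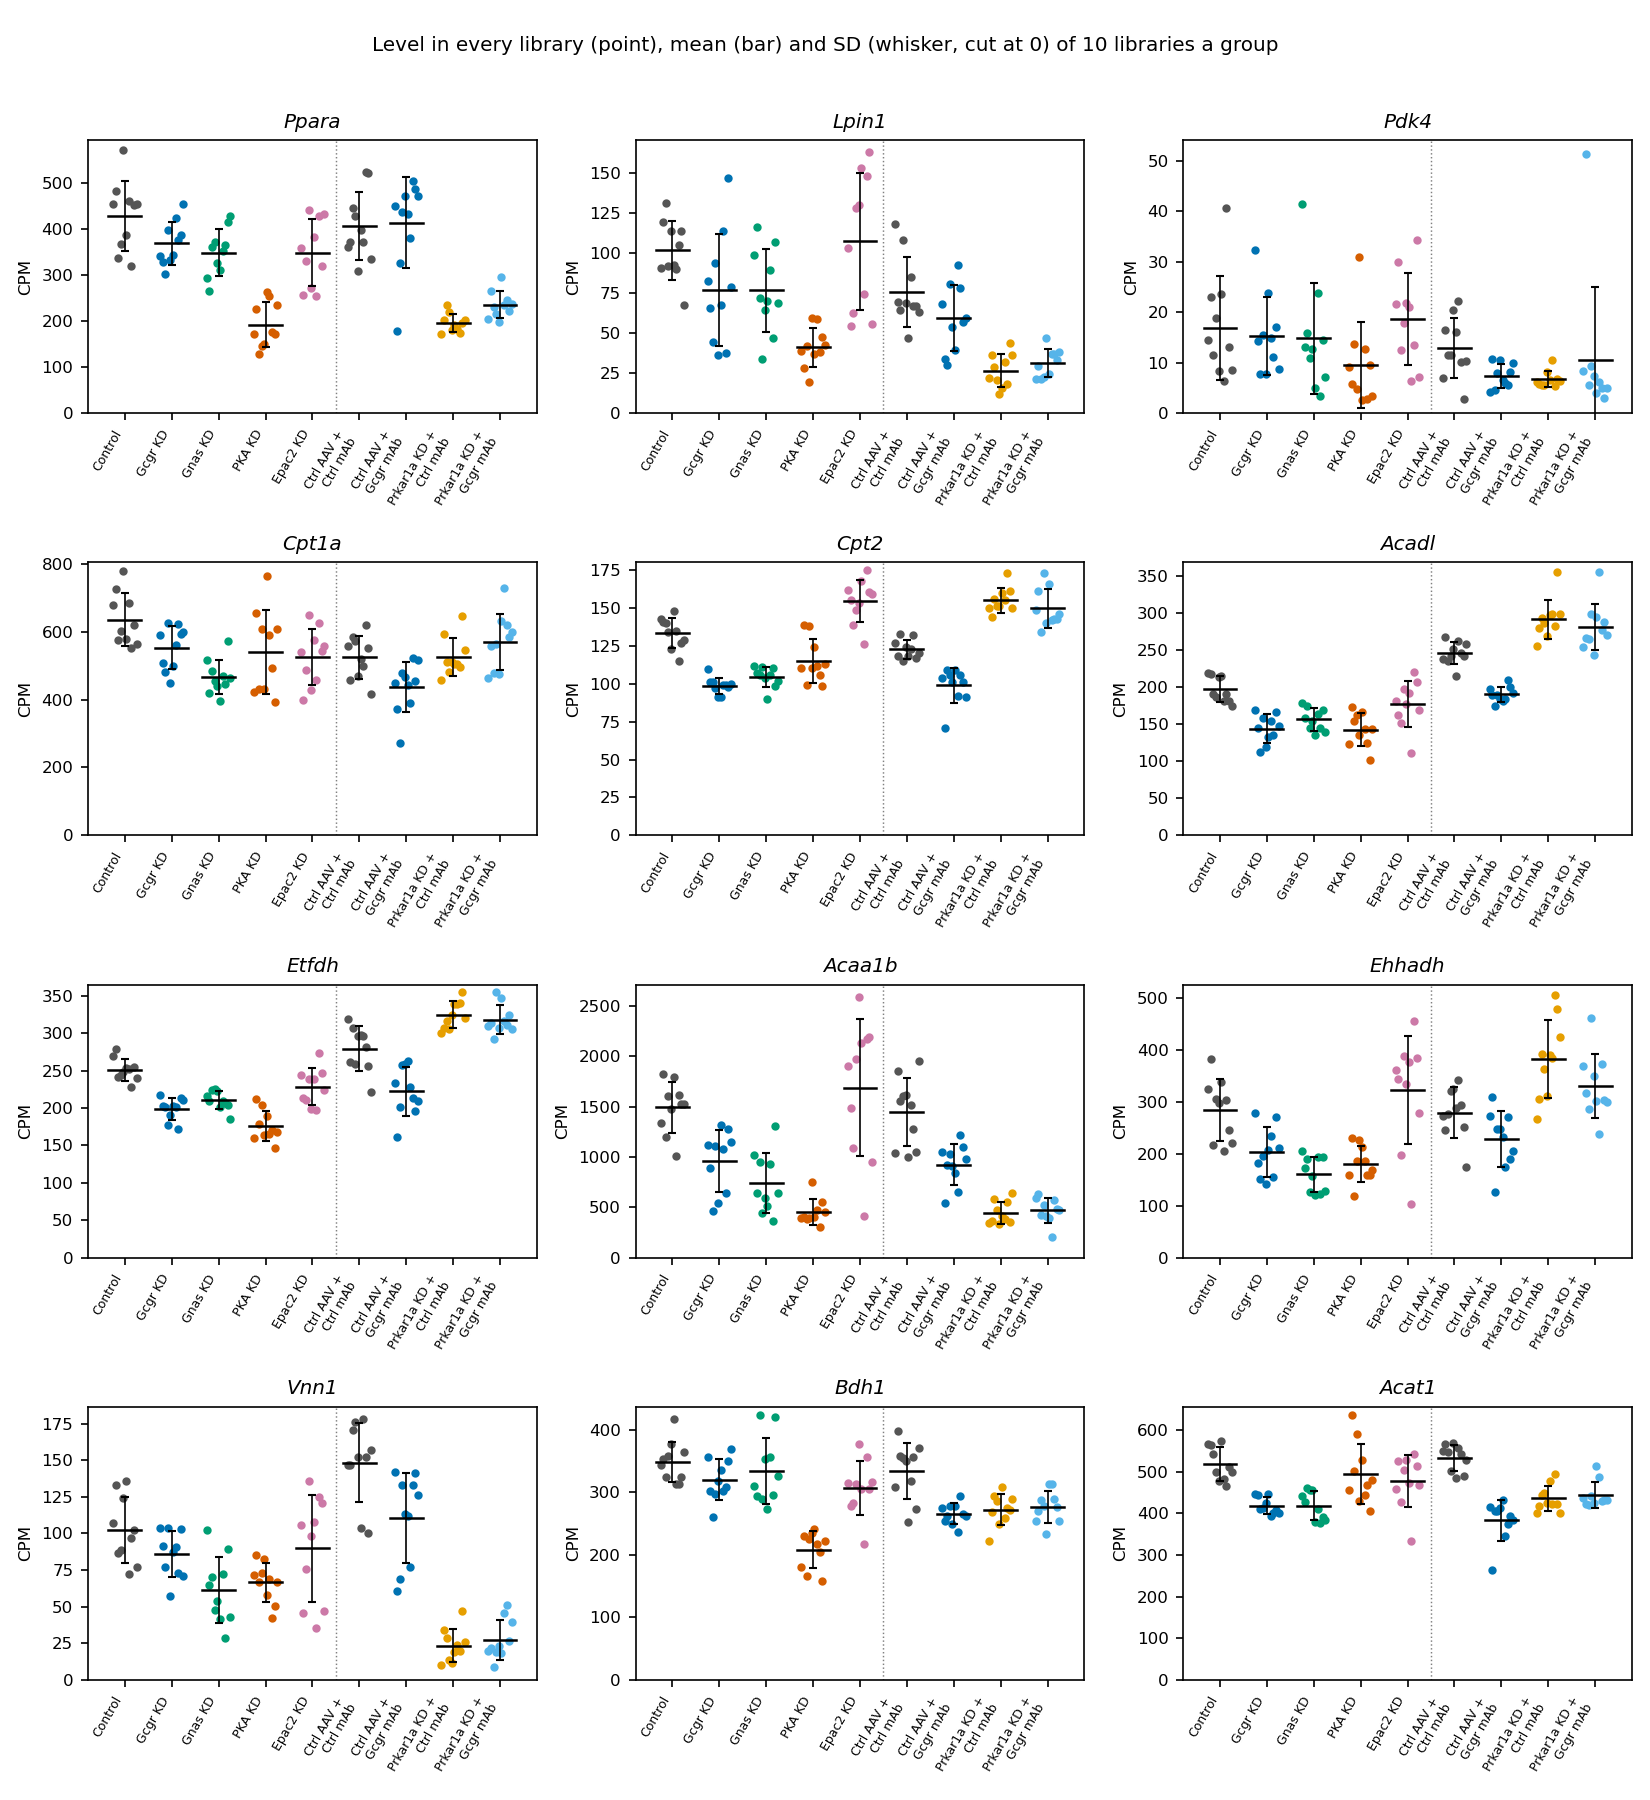
CPM of 12 of the genes in every library (points), with the mean (bar) and SD (whisker) of the 10 libraries of each group and a dotted line between experiment 1 (left) and experiment 2 (right). Ppara is low with PKA KD and with Prkar1a KD. Cpt2, Acadl and Etfdh are low with Gcgr KD, Gnas KD, PKA KD and Gcgr mAb in Control AAV, and high with Prkar1a KD.

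Knockdown of Epac2 left most of the 29 genes without a call. Cpt2 rose and Hadhb fell, and the other 27 did not pass the test. Each is 3.45% of the members, near the 1.82% of all tested genes that rose and the 2.74% that fell. Over the 29 genes the median was -0.01. PKA KD was lower than Epac2 KD for 21 of the 29 genes (17.3% of all tested genes were lower), with the other 8 not called; without Epac2 KD replicate 7 it was lower for 24. Cpt2 stood at 126, 157 and 175 CPM with Epac2 KD against 115, 134 and 148 CPM in Control, with overlap (0.21 ± 0.057, adjusted p = 0.0176). Peroxisomal genes spread widely within the Epac2 KD group, Acaa1b from 413 to 2596 CPM and Ehhadh from 103 to 455 CPM. Replicate 7 held the lowest value of both, and without that library the number of members called against Control was also 2.

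Hadhb encodes the beta subunit of the trifunctional protein and Hadha the alpha subunit, and the complex needs both. Hadhb stood at 68.6, 104 and 118 CPM with Epac2 KD against 123, 129 and 161 CPM in Control. The groups did not overlap, which held for 0.538% of all tested genes in this direction, and the log2 fold change was -0.46 ± 0.082 (adjusted p = 0.00012). Hadha in the same libraries stood at 332, 456 and 497 CPM against 413, 439 and 497 CPM (-0.02 ± 0.057, adjusted p = 0.913). The pair was singled out after these values were seen. The log2 ratio of Hadhb to Hadha was -2.18 ± 0.11 (SD, n = 10) with Epac2 KD, from -2.42 to -2.07, and -1.74 ± 0.064 in Control, from -1.84 to -1.62. These ratios, which differ by -0.44, are given as a description only. Since the pair was chosen for this difference, a p-value for it could not count as support. Of the 9 comparisons in which the ratio was taken, the next widest difference was 0.14, for Prkar1a KD with Gcgr mAb in both groups.

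The pair is of further interest because the genes lie head to head on chromosome 5. The RefSeq promoter windows, which run from 250 bases before to 50 bases after each start in GRCm38.p6, share 228 bases (chr5:30155003-30155230) read from opposite strands. Both are shown so that the shared stretch, in capitals, can be seen.
Hadha (chr5:30154931-30155230, minus strand): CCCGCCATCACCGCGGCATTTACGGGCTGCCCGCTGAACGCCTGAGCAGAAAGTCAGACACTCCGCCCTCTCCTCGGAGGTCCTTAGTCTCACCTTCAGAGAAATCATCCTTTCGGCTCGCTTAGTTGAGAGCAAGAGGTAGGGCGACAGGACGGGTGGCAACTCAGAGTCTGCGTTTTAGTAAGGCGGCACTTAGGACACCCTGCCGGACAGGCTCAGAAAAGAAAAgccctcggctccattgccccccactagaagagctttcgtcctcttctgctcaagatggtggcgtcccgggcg
Hadhb (chr5:30155003-30155302, plus strand): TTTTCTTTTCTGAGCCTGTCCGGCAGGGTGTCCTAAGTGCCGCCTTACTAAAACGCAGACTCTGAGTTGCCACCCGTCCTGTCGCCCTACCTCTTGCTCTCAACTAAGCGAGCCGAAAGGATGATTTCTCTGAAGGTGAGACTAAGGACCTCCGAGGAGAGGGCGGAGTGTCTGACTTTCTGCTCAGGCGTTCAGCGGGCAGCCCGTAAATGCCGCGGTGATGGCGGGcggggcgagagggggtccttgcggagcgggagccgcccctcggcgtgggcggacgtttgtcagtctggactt

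The transcripts of the pair share 0 words of 50 bases, so reads could not be split between them in the way they could for Acaa1a and Acaa1b. RefSeq windows were found for 24 of the 29 members (26 windows, as some genes have more than 1 start) and not for Crat, Acaa2, Decr1, Acat1 and Vnn1. The core of the cAMP response element, TGACGT, searched on both strands, occurred in 7.51% of all 32851 windows and in 1 member window, that of Ehhadh. The shorter string TGACG, which TGACGT contains, occurred in 20.8% of all windows and in those of 5 members (Acadm, Ehhadh, Etfa, Etfdh and Ppara). A strict form of the PPAR element, 2 copies of AGGNCA separated by 1 base, occurred in 0.381% of windows and in 0 member windows. The Ehhadh window is shown with its TGACGT in capitals, and those of Acaa1b and Acaa1a because these neighbouring thiolase genes differed in the depth of their changes. A match is only a string of letters in the window.
Ehhadh (chr16:21787785-21788084, minus strand): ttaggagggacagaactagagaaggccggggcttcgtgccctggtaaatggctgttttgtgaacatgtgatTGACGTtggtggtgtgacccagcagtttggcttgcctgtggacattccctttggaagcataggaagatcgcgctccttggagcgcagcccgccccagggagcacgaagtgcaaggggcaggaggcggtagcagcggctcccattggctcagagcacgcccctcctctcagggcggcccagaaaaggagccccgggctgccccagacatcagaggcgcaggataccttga
Acaa1b (chr9:119157044-119157343, minus strand): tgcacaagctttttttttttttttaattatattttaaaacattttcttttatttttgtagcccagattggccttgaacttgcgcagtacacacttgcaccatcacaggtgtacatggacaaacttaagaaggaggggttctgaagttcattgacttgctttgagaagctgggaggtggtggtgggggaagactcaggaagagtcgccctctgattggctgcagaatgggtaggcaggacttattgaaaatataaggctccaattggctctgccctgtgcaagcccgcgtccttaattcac
Acaa1a (chr9:119341044-119341343, plus strand): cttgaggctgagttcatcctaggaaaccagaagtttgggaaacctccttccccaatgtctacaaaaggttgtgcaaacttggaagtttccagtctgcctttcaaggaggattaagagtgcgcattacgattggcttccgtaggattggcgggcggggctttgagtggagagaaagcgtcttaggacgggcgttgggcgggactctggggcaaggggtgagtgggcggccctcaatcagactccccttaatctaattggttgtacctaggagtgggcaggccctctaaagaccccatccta

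In experiment 2, blocking the receptor with the antibody lowered genes of the same steps. Here 15 of the 29 genes fell with Gcgr mAb in Control AAV and the other 14 did not pass the test (5.27% of all tested genes fell and 2.92% rose; 10.8% fell among well expressed genes). Against 0.01 over all tested genes, the members had a median log2 fold change of -0.3. By role, 6 of 8 genes of the mitochondrial cycle, 2 of 3 auxiliary enzymes, 2 of 3 of electron transfer and both ketone body genes fell, and the 3 regulators did not pass the test.

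Crat stood at 26.1, 37.4 and 51.1 CPM with the antibody and at 45.8, 73 and 84.7 CPM without it, with a narrow overlap, at -0.9 ± 0.11 (adjusted p = 1.41e-07). Acat1 stood at 264, 399 and 433 CPM against 486, 546 and 569.7 CPM. The groups did not overlap and the log2 fold change was -0.48 ± 0.061 (adjusted p = 5.34e-07). Cpt2 stood at 71, 103 and 109 CPM against 115, 121 and 133 CPM, also without overlap (-0.31 ± 0.057, adjusted p = 0.000305). Acadl did likewise, at 175, 189.6 and 210 CPM against 215, 244 and 268 CPM (-0.37 ± 0.056, adjusted p = 1.39e-05). These last 3 were the members without overlap, where 0.381% of all tested genes were lower without overlap.

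Bdh1 fell with the antibody by 0.33 on the log2 scale (SE 0.067, adjusted p = 0.00115), and Acaa1b by 0.65 (SE 0.16, adjusted p = 0.00752). Ppara stood at 178, 443 and 505 CPM with the antibody against 308, 385 and 524 CPM without it, with a log2 fold change of 0.03 ± 0.12 (adjusted p = 0.918). The lowest value was that of replicate 2, the library least like its group, and the same 15 members were called without it. Without replicate 10 of the control group Cpt1a passed as well (-0.3 ± 0.091, adjusted p = 0.0351). Pdk4 was lower in 10 of 10 libraries than the median without antibody, at 4.19, 7.23 and 10.8 CPM against 2.85, 11.6 and 22.2 CPM, but its spread was wide and -0.8 ± 0.36 did not pass the test (adjusted p = 0.17). Of the 11 genes that fell with Gcgr KD, 7 also fell with the antibody (63.6% of the first and 46.7% of the second list), in libraries that the experiments do not share, where 51.7% of all 29 members fell with the antibody. They were Cpt2, Acadl, Acadm, Eci1, Etfa, Etfdh and Acat1.

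Prkar1a knockdown moved the 29 genes both ways. With the control antibody 19 fell, 8 rose and 2 did not pass the test, where 26.9% of all tested genes fell and 29.3% rose. Among well expressed genes the shares were 34.2% lower and 32.1% higher. The share of members that rose, 27.6%, was near these backgrounds, and the share that fell was 65.5%. The members had a median of -0.29. All 3 regulators, all 3 auxiliary enzymes and both ketone body genes fell, and all 3 genes of electron transfer rose. In 9 members the knockdown libraries lay wholly below the controls and in 1 wholly above (7.27% and 7.8% of all tested genes).

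Vnn1 changed most, from 100.3, 152 and 178 CPM in the control group to 10.3, 21.8 and 46.7 CPM, without overlap, at -2.67 ± 0.26 (adjusted p = 3.31e-11). Ppara went from 308, 385 and 524 CPM to 172, 193 and 234 CPM (-1.06 ± 0.12, adjusted p = 4.91e-10). The groups did not overlap for Ppara, nor for Lpin1, which went from 46.8, 67.9 and 118 CPM to 11.9, 25.4 and 43.8 CPM (-1.51 ± 0.21, adjusted p = 1.81e-07). Acaa1b went from 1002, 1537 and 1955 CPM to 334, 399 and 637 CPM (-1.71 ± 0.16, adjusted p = 1.53e-11). Pdk4 fell by 0.95 on the log2 scale (SE 0.36, adjusted p = 0.0259).

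Smaller falls were seen in the carnitine shuttle and in parts of the cycle. Slc25a20, the carnitine carrier of the inner membrane, had a log2 fold change of -0.69 ± 0.065 (adjusted p = 8.01e-12), Hadh, a short-chain hydroxyacyl-CoA dehydrogenase, of -0.78 ± 0.081 (adjusted p = 9.43e-11), and Eci1 of -0.84 ± 0.079 (adjusted p = 7.88e-12). Acadm went from 364, 433 and 455 CPM to 264, 294 and 322 CPM, without overlap (-0.52 ± 0.054, adjusted p = 1.01e-10). Bdh1 went from 253, 352 and 399 CPM to 223, 274 and 308 CPM, with overlap (-0.29 ± 0.067, adjusted p = 0.000305). Cpt1a stood at 457, 508 and 645 CPM against 417, 535 and 618 CPM, and its log2 fold change of 0.0 ± 0.091 did not pass the test (adjusted p = 0.992).

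The 8 rises were those of Cpt2, Acadl, Hadha, Hadhb, Etfa, Etfb, Etfdh and Ehhadh. Cpt2 went from 115, 121 and 133 CPM to 144, 153 and 173 CPM, the 1 rise without overlap (0.34 ± 0.057, adjusted p = 3.12e-06). Acadl went from 215, 244 and 268 CPM to 256, 289.7 and 356 CPM (0.25 ± 0.056, adjusted p = 0.00027), and Etfdh from 221, 289 and 319 CPM to 300, 322 and 355 CPM (0.22 ± 0.067, adjusted p = 0.00605). Their groups overlapped, with 10 of 10 knockdown libraries above the control median for each. Ehhadh went from 174, 282 and 342 CPM to 266, 386 and 505 CPM (0.45 ± 0.13, adjusted p = 0.00291). The rises of Etfa (0.1 ± 0.044, adjusted p = 0.044) and Etfb (0.21 ± 0.085, adjusted p = 0.0314) were lost with RLE scaling and with only the groups compared, and that of Etfa also with no filter, DESeq2 and the replicate block.

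The hepatocyte markers moved in the same samples. Their sum was 41909.5 to 59179 CPM (median 47890.5) with Prkar1a KD and Control mAb and 90002 to 101619.8 CPM (median 97212) in the control group, and 6 of the 8 markers fell while 1 rose. Mitochondrial ribosomal RNA was 1.29% ± 0.26 of counts (SD, n = 10) with Prkar1a KD against 0.571% ± 0.084. The part of either in the results was not tested. The 4 adipocyte markers summed to at most 9.52 CPM in any library, with medians near 0 in all groups.

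**Figure D3:**
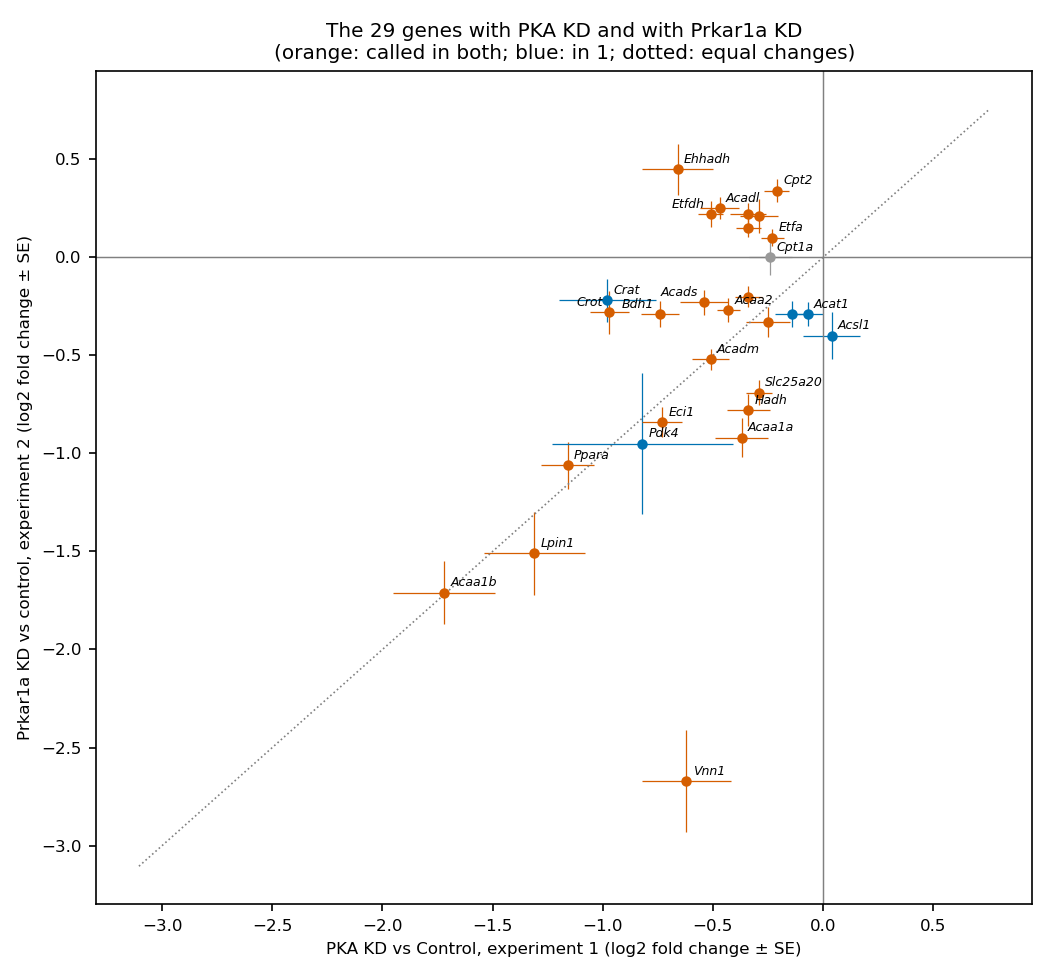
Log2 fold change ± SE of the 29 genes with PKA KD in experiment 1 (horizontal) and with Prkar1a KD and Control mAb in experiment 2 (vertical), orange where called in both, with names left off in crowded places. Ppara, Lpin1 and Acaa1b lie near the line of equal change at the lower left, and the 8 genes that fell with PKA KD and rose with Prkar1a KD lie above the horizontal line.

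PKA KD and Prkar1a KD act on the kinase in opposite senses and share no libraries, and the calls of the 29 genes are set side by side here. Of the 24 genes that fell with PKA KD, 15 also fell with Prkar1a KD (62.5% of the first list and 78.9% of the second), near the 65.5% of all 29 members that fell with Prkar1a KD. They included Ppara, Lpin1, Crot, Acadm, Acaa1b, Bdh1 and Vnn1. The 8 genes that rose with Prkar1a KD had all fallen with PKA KD (33.3% of the first list and 100% of the second), where 82.8% of all 29 members fell with PKA KD. For Ppara the changes were -1.16 ± 0.12 and -1.06 ± 0.12, and for Acaa1b -1.72 ± 0.23 and -1.71 ± 0.16, in PKA KD and Prkar1a KD. For Ehhadh they were -0.66 ± 0.16 and 0.45 ± 0.13, and for Cpt2 -0.21 ± 0.057 and 0.34 ± 0.057. The differences between experiments were not tested, since the tables were fitted apart.

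In Prkar1a KD livers the antibody gave no call in this pathway. With Gcgr mAb against Control mAb in Prkar1a KD, edgeR called 0 of the 29 genes, with 1 at an unadjusted p under 0.05, and DESeq2 and limma-voom called 0. The same comparison called 0.0% of all tested genes. Values ran from -0.21 for Ehhadh to 0.59 for Pdk4, with a median of 0.03. Cpt2 stood at 134, 145 and 173 CPM with the antibody and 144, 153 and 173 CPM without it (-0.05 ± 0.057, adjusted p = 0.925). Acadl stood at 244, 274 and 356 CPM and at 256, 289.7 and 356 CPM (-0.05 ± 0.056, adjusted p = 0.918). Acat1 (0.03 ± 0.061) and Bdh1 (0.02 ± 0.067) had adjusted p-values of 0.969 and 0.976. In each of these 4 genes the groups overlapped over most of their range.

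Whether the antibody effect itself differed with Prkar1a KD was tested by the interaction. It was positive for 10 of the 29 genes and the other 19 did not pass the test, where 2.74% of all tested genes were positive and 1.34% negative (5.85% positive among well expressed genes). The median over the 29 was 0.3, against -0.01 over all tested genes. The largest were those of Crat (0.7 ± 0.15, adjusted p = 0.00539), Acat1 (0.5 ± 0.087, adjusted p = 0.00028), Acads (0.5 ± 0.088, adjusted p = 0.000437) and Hadh (0.49 ± 0.11, adjusted p = 0.00948). Acadl, Acadm and Bdh1 followed at 0.32, 0.32 and 0.35 with adjusted p-values of 0.0158, 0.0113 and 0.0263. The remaining 3 were Eci1, Decr1 and Etfa. Decr1 (adjusted p = 0.0493) lost its call with no filter, limma-voom and the replicate block and without each of the 3 libraries left out (0.0687 to 0.0689), while Hadhb (0.0479) and Etfdh (0.027) passed without replicate 10 of Control AAV + Control mAb. Cpt2 missed the threshold (0.26 ± 0.08, adjusted p = 0.0566), and DESeq2, which called 17 members, passed it (adjusted p = 0.0255). For Ppara the interaction was 0.24 ± 0.16 (adjusted p = 0.416), and for Ehhadh 0.08 ± 0.18 (adjusted p = 0.833).

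**Figure D4:**
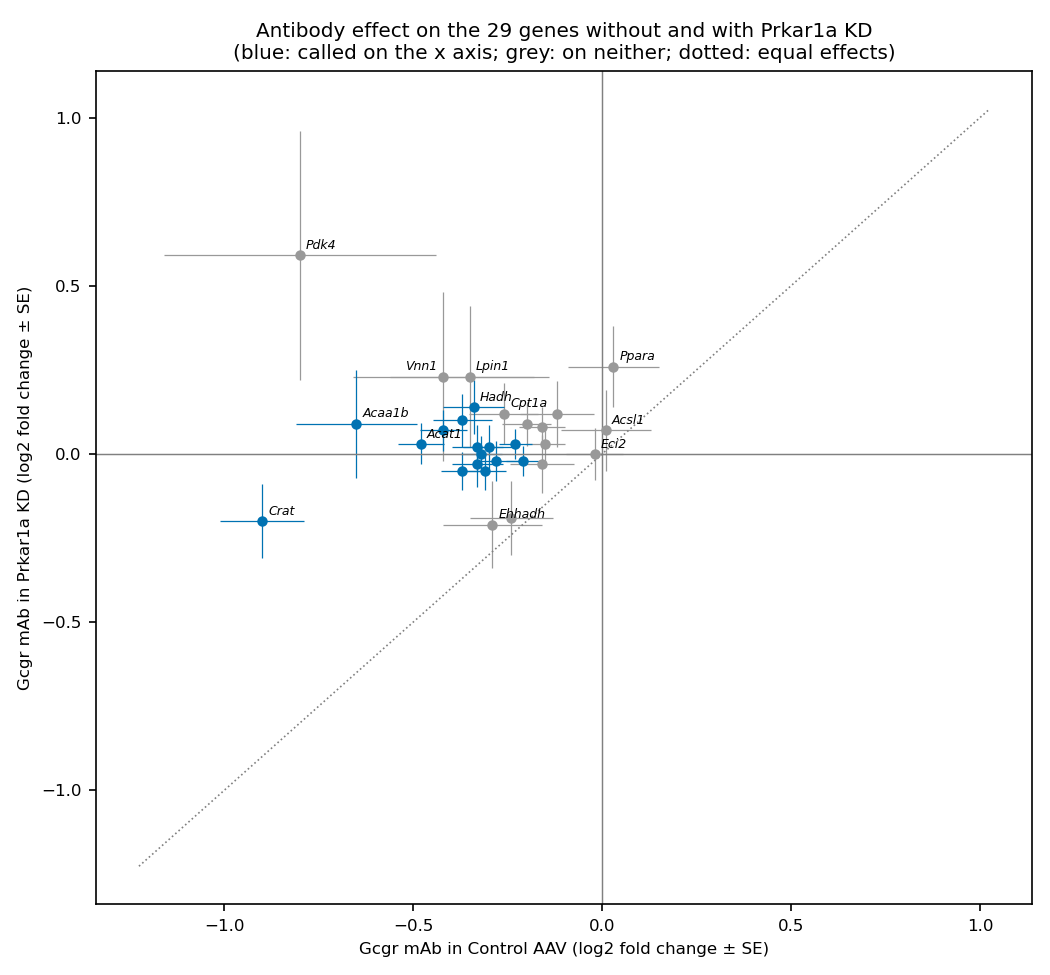
Log2 fold change ± SE of the 29 genes with Gcgr mAb in Control AAV (horizontal) and in Prkar1a KD (vertical), with names given where they can be read. The 15 genes called in Control AAV (blue) lie left of 0, and run from -0.2 to 0.14 on the vertical axis, off the dotted line of equal effects.

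Seen the other way, Prkar1a KD was called for more rises where the antibody was present. With Gcgr mAb in both groups, 12 members rose with Prkar1a KD and 11 fell, and 6 did not pass the test. These are 41.4% and 37.9% of the members, against 26.5% and 26.6% of all tested genes. Shares among well expressed genes are not given for this comparison. With Control mAb they were higher than those of all tested genes, at 32.1% for rises and 34.2% for falls, so the falls here may be near background. The groups did not overlap for 6 of the rises and 1 of the falls (6.0% and 4.43% of all tested genes). Cpt2 had 0.6 ± 0.057 (adjusted p = 1.33e-11), Acadl 0.57 ± 0.056 (adjusted p = 4.04e-11), Etfdh 0.52 ± 0.067 (adjusted p = 2.44e-08) and Hadha 0.34 ± 0.045 (adjusted p = 3.35e-08). Cpt1a, with no call under the control antibody, rose by 0.38 ± 0.091 (adjusted p = 0.000497). Crat (0.48 ± 0.11, adjusted p = 0.000289) and Acat1 (0.21 ± 0.061, adjusted p = 0.00366) also rose. The antibody alone had lowered both genes, and with both treatments each was still called lower than with neither. Vnn1 (-2.01 ± 0.25, adjusted p = 1.67e-08), Acaa1b (-0.98 ± 0.16, adjusted p = 2.84e-06) and Ppara (-0.82 ± 0.12, adjusted p = 1.7e-07) fell. Cell markers fell in the same comparison: 6 of 8 hepatocyte, 4 of 6 Kupffer, 5 of 7 stellate and 5 of 6 endothelial markers. The hepatocyte sums ran from 37196 to 70961 CPM (median 51835) against 76000.2 to 107759.9 CPM (median 88206), and the endothelial sums from 58.3 to 118 CPM (median 81.4) against 102 to 175 CPM (median 141). Stellate sums ran from 206 to 346 CPM (median 279) against 239 to 826 CPM (median 345), and Kupffer sums from 75.3 to 235 CPM (median 116) against 87.6 to 415 CPM (median 148). Mitochondrial ribosomal RNA was 1.16% ± 0.28 of counts (SD, n = 10) against 0.435% ± 0.094. The part of these in the results was not tested.

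Against the group with neither treatment, Prkar1a KD + Gcgr mAb had 19 members lower and 6 higher, with 4 not called (24.2% and 26.0% of all tested genes). The share of members that were higher, 20.7%, was below that of all tested genes, and the share that were lower was 65.5%. Shares among well expressed genes are not given here either. Groups did not overlap for 8 lower and 1 higher member (5.42% and 5.31% of all tested genes). Cpt2 stood at 134, 145 and 173 CPM against 115, 121 and 133 CPM, without overlap (0.29 ± 0.057, adjusted p = 4.97e-05), and Vnn1 at 8.53, 22.4 and 51.3 CPM against 100.3, 152 and 178 CPM (-2.44 ± 0.26, adjusted p = 3.42e-10). Acads lost its call in this comparison without replicate 10 of the control group (adjusted p = 0.0865) and without replicate 2 of Prkar1a KD + Gcgr mAb (adjusted p = 0.0506). Pdk4 in this group depended on 1 library. Replicate 2, the library with muscle markers, held 51.4 CPM where the other 9 held 3.05 to 9.28 CPM. With it the log2 fold change of Pdk4 was -0.36 ± 0.36 (adjusted p = 0.424), and without it -1.11 ± 0.24 (adjusted p = 0.000234). The interaction for Pdk4, 1.39 ± 0.52 (adjusted p = 0.115), was 0.63 ± 0.34 without it (adjusted p = 0.291). Muscle is a tissue in which Pdk4 is abundant, and the part of muscle RNA in this value was not tested.

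Averaged over the 29 genes, each library was given as its mean log2 CPM minus the mean of its control group. In experiment 1 this level was -0.29 ± 0.13 (SD, n = 10) with Gcgr KD, -0.35 ± 0.16 with Gnas KD, -0.55 ± 0.13 with PKA KD and -0.05 ± 0.25 with Epac2 KD, with 0.095 as the SD of Control. All 10 PKA KD libraries, from -0.71 to -0.38, lay below all controls, which ran from -0.14 to 0.19. In experiment 2 it was -0.31 ± 0.15 with Gcgr mAb, -0.43 ± 0.097 with Prkar1a KD and -0.39 ± 0.092 with both. In the last 2 groups members rose as well as fell, so the mean hides part of the change. Replicate 7 of Epac2 KD, at -0.63, was the lowest of its group, whose other libraries ran from -0.24 to 0.21.

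**Figure D5:**
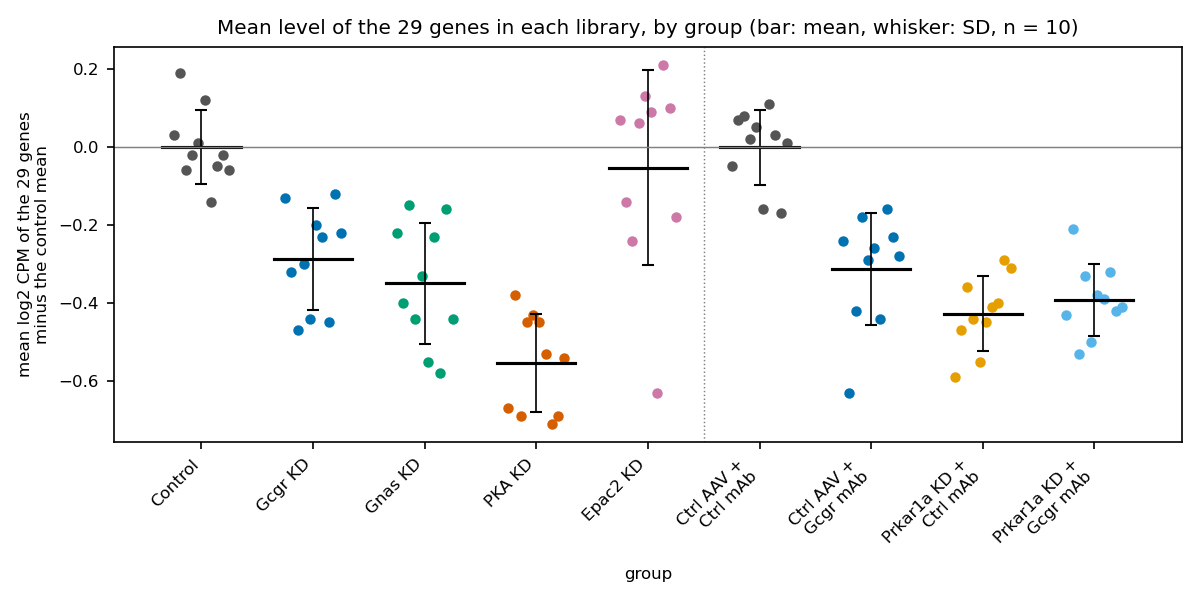
Mean log2 CPM of the 29 genes in each library minus the mean of the control group (vertical), by group (horizontal), with the mean (bar) and SD (whisker) of 10 libraries. PKA KD is lowest in experiment 1, from -0.71 to -0.38, and in experiment 2 the 3 treated groups lie below the control mean of 0.

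Other genes of the pathway were read from 4 further lists. For 13 genes of fatty acid uptake, activation and malonyl-CoA, the counts of rises and falls were 0 and 3 with Gcgr KD, 0 and 5 with Gnas KD, 2 and 5 with PKA KD, 0 and 4 with Gcgr mAb in Control AAV, and 3 and 9 with Prkar1a KD. Over all tested genes the shares that rose and fell were 2.9% and 4.33%, 6.83% and 8.32%, 17.7% and 14.8%, 2.92% and 5.27%, and 29.3% and 26.9%, in the same order. The rises with PKA KD and Prkar1a KD are thus near those shares. Fabp1, the abundant fatty acid carrier of the hepatocyte, stood at 2549.8, 2815 and 4965 CPM with PKA KD against 4604, 5211 and 5992 CPM in Control (-0.76 ± 0.12, adjusted p = 2.46e-06). With Prkar1a KD Fabp1 stood at 849, 1090.4 and 1743 CPM against 3983, 5408 and 7379.8 CPM, without overlap (-2.18 ± 0.14, adjusted p = 3.94e-16). Acacb, which makes the malonyl-CoA that restrains Cpt1a, fell with Gnas KD (-1.1 ± 0.32, adjusted p = 0.0128) and with Prkar1a KD (-3.3 ± 0.33, adjusted p = 7.75e-11). The carnitine transporter Slc22a5 fell with Gcgr KD (-0.4 ± 0.11, adjusted p = 0.0152) and the antibody (-0.34 ± 0.097, adjusted p = 0.0191) and rose with Prkar1a KD (1.1 ± 0.096, adjusted p = 9.05e-13).

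Of 21 further genes of mitochondrial and peroxisomal oxidation, 20 passed the filter. Rises and falls numbered 1 and 1 with Gcgr KD, 1 and 12 with Gnas KD, 3 and 8 with PKA KD, 1 and 4 with Gcgr mAb, and 4 and 15 with Prkar1a KD. Against the shares over all tested genes just given, the counts with Gcgr KD and the rises with PKA KD and Prkar1a KD were near or below those shares. Phyh, which starts the oxidation of branched chains in peroxisomes, stood at 191, 248 and 447 CPM with PKA KD against 1238, 1505 and 1738 CPM in Control, without overlap (-2.47 ± 0.12, adjusted p = 4.65e-23). Decr2, the peroxisomal reductase for unsaturated chains, fell with Gnas KD (-0.48 ± 0.074, adjusted p = 5.67e-06) and with Prkar1a KD (-1.28 ± 0.076, adjusted p = 1.72e-17). In the list of 5 genes of ketone export and use, 1 rose and 0 fell with each knockdown of experiment 1. With Prkar1a KD and Control mAb 1 rose and 2 fell, and with Gcgr mAb in Control AAV 0 were called. The rises with PKA KD and Prkar1a KD were near or below the shares over all tested genes. With Epac2 KD 1.82% of all tested genes rose. The gene that rose was each time Slc16a6, a transporter linked to ketone export. Slc16a6 rose with Gcgr KD (0.51 ± 0.16, adjusted p = 0.033), Gnas KD (0.68 ± 0.16, adjusted p = 0.00162) and PKA KD (1.23 ± 0.16, adjusted p = 1.01e-08). It also rose with Epac2 KD (0.53 ± 0.16, adjusted p = 0.0349) and Prkar1a KD (1.48 ± 0.19, adjusted p = 2.27e-08). With PKA KD it stood at 18.5, 23.9 and 29.6 CPM against 7.76, 10.5 and 12.7 CPM, without overlap.

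Among 12 partners and coregulators of PPAR alpha, 2 rose and 1 fell with PKA KD and 6 rose and 4 fell with Prkar1a KD. The counts with PKA KD are near or below the 17.7% and 14.8% of all tested genes, and 29.3% and 26.9% rose and fell with Prkar1a KD. Rxra, the obligate partner of PPAR alpha on DNA, had a log2 fold change of -0.02 ± 0.12 with PKA KD (adjusted p = 0.923) and rose with Prkar1a KD by 0.2 ± 0.069 (adjusted p = 0.0128). Ppargc1a, a coactivator induced by cAMP in fasting liver, stood at 9.66, 12.4 and 16.2 CPM with PKA KD against 6.79, 8.54 and 10.7 CPM in Control (0.51 ± 0.14, adjusted p = 0.00344). With Prkar1a KD Ppargc1a stood at 22.1, 39.4 and 57.1 CPM against 7.34, 10.5 and 15.9 CPM, without overlap (1.76 ± 0.17, adjusted p = 1.36e-11). Ppargc1a thus rose in both, while Ppara fell in both. With Gcgr KD and Gnas KD neither Ppargc1a nor Rxra passed the test. The values were 0.11 ± 0.14 (adjusted p = 0.709) and 0.24 ± 0.14 (adjusted p = 0.275) for Ppargc1a. For Rxra they were -0.26 ± 0.12 (adjusted p = 0.18) and -0.12 ± 0.12 (adjusted p = 0.549).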

How the data were processed

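The members and gene lists were chosen with earlier results of these data known. Gene-level expected counts from liver poly(A) RNA (strand-specific libraries, per the labels' protocols) were deposited by the authors in a table for each experiment; 8.69% and 8.55% of values were fractional, and values were rounded here. The submitters' processing notes name bcl2fastq 2.17, FastQC, GRCm38 and mm10; no source used here gives the aligner or counter. Symbols were found for 24375 of 24475 gene identifiers in either table, and 0 columns were left unused.

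Counts were scaled by TMM, filtered with filterByExpr (13574 and 12847 genes tested) and fitted with the robust quasi-likelihood F test of edgeR 4.0.16 in R 4.3.3, with 1 fit per experiment over all its groups. Benjamini-Hochberg adjustment ran over all tested genes, with a threshold of 0.05. CPM are scaled counts without a pseudocount; the per-library mean of log2 CPM used a prior count of 2. Alternatives were RLE scaling, no filter, DESeq2 1.42.0, limma-voom (limma 3.58.1), only the groups compared, a replicate block and, chosen after seeing the data, leaving out 6 single libraries.

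Values are given, not for every comparison, for a fixed set of 15 genes spread over the roles. They are Ppara, Lpin1, Pdk4, Acsl1, Cpt1a, Cpt2, Acadl, Acadm, Hadha, Etfdh, Crot, Ehhadh, Acaa1b, Bdh1 and Vnn1. Further values are given for at most 4 other called members per direction and comparison by size. From the lists, at most 3 called genes per direction are given, with Ppargc1a and Rxra whether called or not. Hadhb beside Hadha, and Acat1 and Crat where not called, were singled out after their values were seen. In data simulated for Gcgr KD (13494 genes) the test recovered 42% of genes changed by 0.32 on the log2 scale, 80% at 0.585, 90% at 1 and 100% at 2, with 3.11% of calls false. For Gcgr mAb in Control AAV (12765 genes) it recovered 36%, 76%, 92% and 98%, with 4.43% false. The changed genes were a small random draw from all but the lowest levels of expression. These shares need not hold for the well expressed members. Libraries held 8.9 M or more total counts. Markers of hepatocytes, other liver cells, fat and muscle (8 lists) were summed per library.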

Additional observations from a re-analysis of the deposited data

Results flagged for a closer look

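In 9 of the 144 groups of values looked at, 1 library lay far from the other 9 of its group, where chance gives about 1 in 20. Replicate 2 of Control AAV + Gcgr mAb was lowest for Ppara (178 CPM, the others 326 to 505), Acsl1 (434 CPM, the others 961 to 1338) and Cpt2 (71.0 CPM, the others 91.6 to 109). Replicate 3 of that group was lowest for Cpt1a (273 CPM, the others 372 to 523). Replicate 10 of Control AAV + Control mAb was lowest for Acsl1 (595 CPM, the others 874 to 1262) and Ehhadh (174 CPM, the others 246 to 342). In the Prkar1a KD groups, Acadl was highest in replicate 9 with Control mAb (356 CPM, the others 256 to 299), and with Gcgr mAb Acaa1b was lowest in replicate 7 (202 CPM, the others 392 to 628) and Pdk4 highest in replicate 2 (51.4 CPM, the others 3.05 to 9.28). Leaving out replicate 2 of Control AAV + Gcgr mAb kept the count of members called lower with the antibody at 15.

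The effect of Gcgr mAb differed between Control AAV and Prkar1a KD, by the interaction test of edgeR, for 3 genes of the fixed set of 15. They were Acadl by 0.32 on the log2 scale, Acadm by 0.32 and Bdh1 by 0.35, with adjusted p-values of 0.0158, 0.0113 and 0.0263. Each was lower with the antibody in 10 of 10 libraries than the median of Control AAV + Control mAb.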

How the results depend on the processing

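Counts of called members kept within 1.5 times of the reported ones under the alternatives run, except that DESeq2 called 17 members for the interaction in place of 10. For the fixed set of 15 genes, 1522 of 1560 values under an alternative kept direction and side of the threshold. Another 35 passed it newly, 3 no longer passed it and 0 reversed. Among all 29 members, calls were lost for Slc25a20 (Gcgr KD and Gnas KD) and Acsl1 (Gnas KD) without the filter, for Acsl1 with limma-voom (Prkar1a KD with Gcgr mAb), for Acads with RLE scaling or only the groups compared (PKA KD against Gcgr KD) and without the filter (both against neither), and, with only the groups compared, for Eci2 (PKA KD against Control and Epac2 KD), Hadhb (PKA KD against Gnas KD) and Hadha (both against neither), beside Etfa, Etfb and Decr1 given above. With only the groups compared, 608 of all tested genes were called for Gcgr mAb in Control AAV in place of 1052; the cause was not tested, and the interaction could not be fitted that way. Replicate numbers showed no strong pairing of the samples. Same-numbered libraries had a mean correlation of 0.02466 in experiment 1 (lowest -0.3889) and 0.0213 in experiment 2 (lowest -0.315). Libraries of other numbers had means of -0.002209 and -0.001729. In experiments 1 and 2, 9 of 50 and 3 of 40 libraries correlated best with their own number. Whether the numbers pair samples weakly was not tested. With the replicate block, members called numbered 12 for Gcgr KD, 18 for Gnas KD, 24 for PKA KD, 2 for Epac2 KD, 15 for Gcgr mAb, 26 for Prkar1a KD with Control mAb, 23 with Gcgr mAb, 25 for both against neither and 10 for the interaction. It gave 0 for Gnas KD against Gcgr KD and for Gcgr mAb in Prkar1a KD, and 12, 14 and 21 for PKA KD against Gcgr KD, Gnas KD and Epac2 KD. What depth limits was not tested apart from the size of the change.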

Other observations

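Cholangiocyte markers (5 genes) had a higher summed median in all 4 knockdown groups of experiment 1. It was 79.5 CPM with Gcgr KD, 86.2 CPM with Gnas KD, 71.1 CPM with PKA KD and 50.3 CPM with Epac2 KD, against 37.1 CPM in Control. Of the 5 markers 0, 2, 2 and 1 rose in the same order, where 2.9%, 6.83%, 17.7% and 1.82% of all tested genes rose. Their part in the falls of oxidation genes was not tested. Of the 5 T and B cell markers, 1 fell with PKA KD and 1 rose with Prkar1a KD and Control mAb. These counts are near or below the shares of all tested genes, of which 14.8% fell with PKA KD and 29.3% rose with Prkar1a KD.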
